A study of Saccharomyces cerevisiae with 16 samples.

Results

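The glycolytic enzymes described here are 9 budding yeast genes, HXK2, PGI1, PFK1, PFK2, FBA1, TPI1, PGK1, GPM1 and CDC19, chosen by their open reading frame names from the 5574 features listed in each library. All 9 were listed as single features, and all 9 passed the filter on low values that left 4882 features for footprints and 5300 for mRNA. Ribosome footprints, the pieces of mRNA that a ribosome shields from nuclease, and poly(A) mRNA fragments were sequenced from the Saccharomyces cerevisiae strain BY4741 and from deletions made in it. Footprints came from 3 can1Δ, 2 rpl22aΔ, 2 tor1Δ and 3 wild-type libraries, and mRNA from 2 can1Δ, 1 rpl22aΔ, 1 tor1Δ and 2 wild-type libraries. The deleted genes encode the arginine permease (CAN1), a protein of the large ribosomal subunit (RPL22A) and a kinase of the TOR growth-signalling complex (TOR1), and the strains are called can1, rpl22a and tor1 below. Every strain shares the auxotrophies of BY4741, was grown in rich glucose medium (YPD) to an optical density of 0.5, and met cycloheximide in the lysis buffer. The labels name neither the number of clones behind a deletion strain nor whether replicates were separate cultures, so p-values measure the spread between these libraries, which may be technical. For most mRNA features that spread was pooled over genes of similar level and was not the gene's own.

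Glycolysis splits a molecule of glucose into pyruvate, with ATP spent in its upper steps and earned in its lower ones. Budding yeast given glucose ferments it to ethanol even in air, and its glycolytic enzymes are among the most abundant proteins of the cell. Their genes are known to be transcribed under the activators Gcr1, Gcr2, Rap1 and Tye7 and to use the codons that abundant transfer RNAs read.

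Footprint libraries held between 2.52 and 8.70, and mRNA libraries between 7.65 and 26.6, in units of 1e6 reads. Of the reads of a library, 76.4 to 81.7% were in listed features for footprints, lowest in rpl22a replicate 2, and 54.4 to 61.4% for mRNA. CAN1 had 1 to 2 footprint reads per library in can1, against 208 to 582 in wild type, and RPL22A had 5 to 17 in rpl22a, against 1883 to 7862 in wild type. TOR1 had 1 to 2 footprint reads per library in tor1, against 129 to 285 in wild type. Each glycolytic gene had between 2549 and 140166 footprint reads and between 1711 and 213755 mRNA reads in a library, so counting error was small. It was not compared with the spread between libraries.

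The sequence before a glycolytic gene is where its activators bind, and the windows printed here are those in which the core that Gcr1 recognises is densest. In each line 100 bases of genome build R64 are given on the gene's own strand, and capitals mark CTTCC or its reverse complement GGAAG. A window is shown for each gene with at least 2 matches within 100 bases, lying 150 or more bases before the start codon.
PGI1, chrII:614189-614288, minus strand: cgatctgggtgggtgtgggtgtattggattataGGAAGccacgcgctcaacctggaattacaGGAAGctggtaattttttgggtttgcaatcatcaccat
PFK1, chrVII:974004-974103, minus strand: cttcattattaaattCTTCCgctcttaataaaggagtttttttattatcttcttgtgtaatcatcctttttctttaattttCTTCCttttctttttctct
PFK2, chrXIII:675244-675343, minus strand: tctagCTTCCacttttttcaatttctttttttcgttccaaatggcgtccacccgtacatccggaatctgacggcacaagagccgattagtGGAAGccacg
TPI1, chrIV:556810-556909, minus strand: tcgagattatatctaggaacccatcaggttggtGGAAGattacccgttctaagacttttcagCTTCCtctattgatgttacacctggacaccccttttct
PGK1, chrIII:137255-137354, plus strand: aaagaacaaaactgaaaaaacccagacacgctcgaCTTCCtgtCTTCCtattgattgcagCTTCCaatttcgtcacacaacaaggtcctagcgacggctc
CDC19, chrI:71452-71551, plus strand: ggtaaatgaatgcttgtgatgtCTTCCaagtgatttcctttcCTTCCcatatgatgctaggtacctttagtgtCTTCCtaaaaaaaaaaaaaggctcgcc
In the 600 bases before the start codon, CTTCC on either strand occurred in 8 of the 9 genes, against 72.35% of 5446 genes. It occurred 3 or more times in 5 of the 9, against 15.53% of all genes. PGK1 had 5 matches, PGI1, PFK2, GPM1 and CDC19 had 3 each, PFK1 and TPI1 had 2, FBA1 had 1, and HXK2 had none. A Rap1-type pattern with fixed bases on both sides of a free pair matched none of the 9 and 0.8263% of all genes. It was searched without mismatches and is rare everywhere, so its lack here does not show that Rap1 sites are missing. These are matches of letters in a window, on both strands and with no overlap between the patterns, and not measured binding sites.

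In wild-type footprints the 9 genes fell into an abundant group, from aldolase (FBA1) onward, and a less abundant group of the steps before it. All levels below are RPKM (reads per kilobase of listed length per 1e6 reads) after scaling between libraries, and errors of levels are SD. FBA1, fructose-bisphosphate aldolase (YKL060C, chrXI:326408-327487), was highest with 14012 ± 835 RPKM (n = 3), the feature of rank 2 among all listed. CDC19, the main pyruvate kinase (YAL038W, chrI:71786-73288), followed with 12918 ± 756 RPKM at rank 3, and the library values of this pair overlapped. PGK1, phosphoglycerate kinase (YCR012W, chrIII:137746-138996), had 9592 ± 501 RPKM and GPM1, phosphoglycerate mutase (YKL152C, chrXI:163642-164385), had 9279 ± 370 RPKM, again with overlapping libraries. TPI1, triose-phosphate isomerase (YDR050C, chrIV:555726-556472), lay below all of these with 7593 ± 381 RPKM.

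The enzymes that act before the sugar is split were several-fold lower. PGI1, glucose-6-phosphate isomerase (YBR196C, chrII:612236-613900), had 1917 ± 109 RPKM in wild-type footprints. HXK2, the main hexokinase in glucose and also a regulator of glucose repression (YGL253W, chrVII:23935-25395), had 1361 ± 103 RPKM. The α and β subunits of phosphofructokinase, PFK1 (YGR240C, chrVII:970771-973734) and PFK2 (YMR205C, chrXIII:671887-674766), had 672 ± 52.9 and 616 ± 62.6 RPKM, with libraries that overlapped. No other neighbours in the order overlapped in wild type. Each of the 9 coding regions is a single exon in the R64 annotation.

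The mRNA order was different. In wild-type mRNA GPM1 was highest with 9536 and 14724 RPKM, followed by FBA1 with 8166 and 11681, PGK1 with 5793 and 9861 and TPI1 with 5531 and 8275. Each of these 4 genes overlapped its neighbours in the order, while GPM1 and TPI1 did not overlap. CDC19, at rank 3 in footprints and 47 in mRNA, had 3051 and 5125 RPKM and lay below all 4. HXK2 had 624 and 703, PGI1 429 and 571, PFK1 102 and 142 and PFK2 64.4 and 94.6 RPKM, and none of these neighbours overlapped. PFK1 and PFK2 ranked 197 and 211 in footprints, against 725 and 1085 in mRNA.

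**Figure D1:**
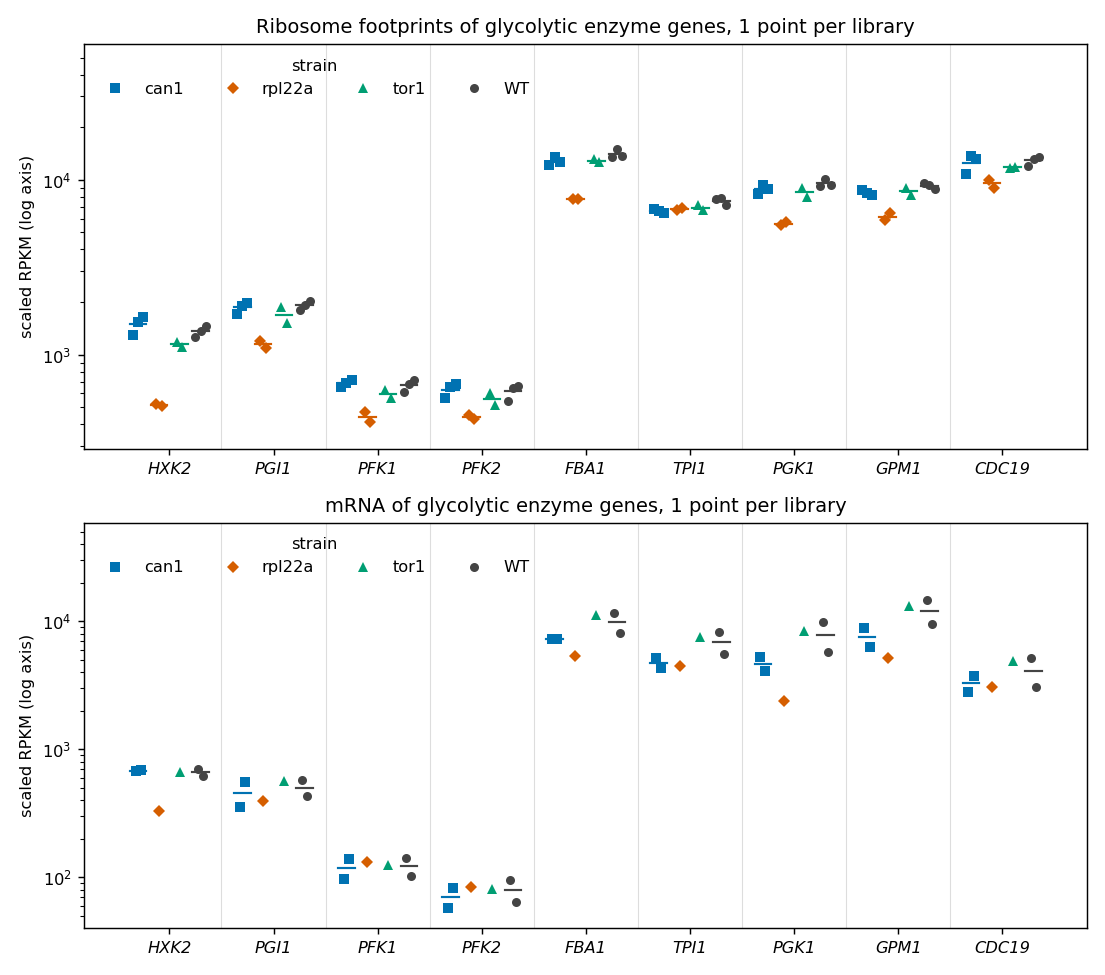
Scaled RPKM (log axis) of the 9 genes in every library, footprints above and mRNA below, with 1 point per library and a line at the mean of each strain. The rpl22a footprint points lie below all wild-type points for all 9 genes, and in wild type GPM1 is the highest of the 9 in mRNA but not in footprints.

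Footprints per mRNA thus differed widely between enzymes of 1 pathway. The ratio of footprint level to mRNA level was taken from means of log2 RPKM after adding 1, and set to 1 for the median gene of the strain. In wild type this ratio was 8.44 for PFK2 and 5.99 for PFK1. It was 4.18 for PGI1, 3.54 for CDC19 and 2.22 for HXK2. FBA1, PGK1 and TPI1 stood at 1.55, 1.37 and 1.22, and GPM1 at 0.848, below the median gene on these means. The GPM1 value rests on wild-type mRNA libraries of 14724 and 9536 RPKM, and on which side of the median gene it lies was not tested. PFK2 lay at percentile 99.7 of all genes and GPM1 at percentile 39.7. In can1, rpl22a and tor1 PFK2 also had the highest ratio of the 9 (9.96, 5.39 and 7.29) and GPM1 the lowest (1.25, 1.24 and 0.705). These are ratios of separately scaled assays and are given as a description.

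The subunits of phosphofructokinase assemble in equal numbers, and their levels were nearly equal in footprints but not in mRNA. PFK1 over PFK2 was 1.17, 1.06 and 1.05 in can1 footprints, 1.05 and 0.966 in rpl22a, 1.05 and 1.11 in tor1, and 1.13, 1.05 and 1.09 in wild type. In mRNA the ratio was 1.70 and 1.69 in can1, 1.55 in rpl22a, 1.54 in tor1, and 1.505 and 1.58 in wild type. The 10 footprint ratios and the 6 mRNA ratios did not overlap. The coding sequences of the pair were identical at 65.6% of 2785 aligned bases, so few reads would match both.

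**Figure D2:**
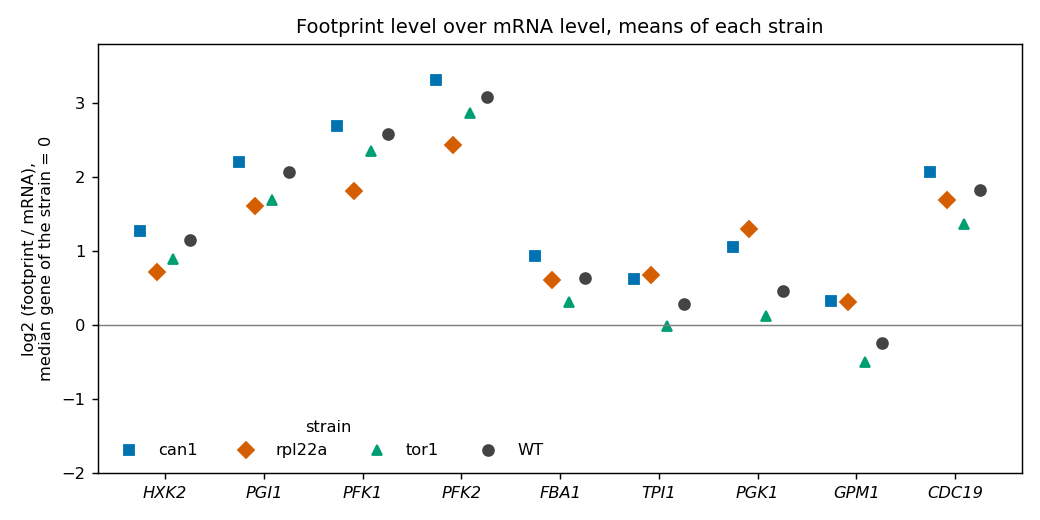
Footprint level over mRNA level of each gene on a log2 scale, relative to the median gene of the strain, from the means of each strain's libraries. PFK2, PFK1, PGI1 and CDC19 lie highest in wild type, and GPM1 lies lowest in all 4 strains.

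Codon use placed the same genes high in the genome. A codon adaptation index computed from 57 ribosomal protein genes was 0.8945 for CDC19 and 0.8884 for FBA1, ranks 2 and 3 of 5409 genes, against a median of 0.2492. TPI1, GPM1 and PGK1 had ranks 14, 20 and 21, PGI1 and HXK2 60 and 63, and PFK2 and PFK1 119 and 136. The minor isozyme of pyruvate kinase, PYK2, had an index of 0.2307. The start of each coding region shows this contrast, with the first 90 bases printed from the start codon and capitals for codons that the ribosomal protein genes use most among their synonyms.
CDC19, chrI:71786-71875, plus strand: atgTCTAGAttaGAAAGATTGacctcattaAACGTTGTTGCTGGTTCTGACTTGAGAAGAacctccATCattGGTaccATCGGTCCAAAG
PYK2, chrXV:986373-986462, minus strand: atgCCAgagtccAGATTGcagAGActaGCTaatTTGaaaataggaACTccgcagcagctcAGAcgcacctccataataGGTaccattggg
Of 29 codons with synonyms in these stretches, 21 were the most used one in CDC19 and 9 in PYK2. Over the whole gene the shares were 77.46% and 40.89%. PYK2 averaged 4.99 RPKM in wild-type footprints.

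Against wild type, the footprints of 8 of the 9 enzymes fell in rpl22a and none rose. The 9 log2 fold changes ranged from −1.39 to −0.15 with a median of −0.61, against 0.01 over all 4882 features tested. Lower calls made up 10.2% and higher calls 8.81% of all features in this comparison (limma, Benjamini-Hochberg adjusted p under 0.05). Both rpl22a libraries lay below all 3 wild-type libraries for all 9 genes, as they did for 25% of all features. Each library is a bulk culture in which levels are shares of a total, so fewer cells with a given mRNA and less of it per cell cannot be told apart.

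HXK2, which phosphorylates glucose on entry, fell most. It had 524 and 511 RPKM in the rpl22a footprint libraries, against 1258, 1359.5 and 1465 RPKM in wild type. The log2 fold change was −1.39 ± 0.12 (SE, n = 2 and 3, adjusted p = 4.00e-05), the smallest p of the 9. PGI1, which turns glucose 6-phosphate into fructose 6-phosphate, had 1201 and 1090.1 RPKM in rpl22a, against 1801, 1935 and 2016 RPKM in wild type. This was a log2 fold change of −0.74 ± 0.12 (adjusted p = 0.00171). For both genes the groups did not overlap, and the gap between them was wider than the range within either.

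Both subunits of phosphofructokinase, the committed and most regulated step, fell. PFK1 had 469 and 411 RPKM in rpl22a, against 615, 680.0 and 720.2 RPKM in wild type, a log2 fold change of −0.61 ± 0.11 (adjusted p = 0.00379). PFK2 had 449 and 426 RPKM in rpl22a, against 545, 645 and 659 RPKM in wild type, a log2 fold change of −0.49 ± 0.13 (adjusted p = 0.0208). The groups did not overlap for either subunit, and the gap was narrower for PFK2. The call of PFK2 was lost without rpl22a replicate 1 (adjusted p = 0.0672) or 2 (0.134) and without wild-type replicate 2 (0.0694) or 3 (0.0645), and also with no scaling beyond the deposited values (0.0803) and with the coding-length trend removed (0.0860).

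In the steps that split the sugar, the enzymes differed. FBA1, which cleaves fructose 1,6-bisphosphate, had 7810.2 and 7758 RPKM in rpl22a, against 13441, 14970.1 and 13626 RPKM in wild type. Its log2 fold change was −0.85 ± 0.10 (adjusted p = 0.000248). TPI1, which interconverts the triose phosphates that this makes, had 6729 and 6905 RPKM in rpl22a, against 7786, 7839 and 7154 RPKM in wild type. Its difference of −0.15 ± 0.09 did not pass the test (adjusted p = 0.276). TPI1 was 0.02 higher in rpl22a with no scaling beyond the deposited values (adjusted p = 0.885) and passed with a difference of −0.32 when the coding-length trend was removed (adjusted p = 0.0123).

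The payoff steps also fell. PGK1, which makes the pathway's earliest ATP, had 5503 and 5729 RPKM in rpl22a, against 9229, 10163 and 9383 RPKM in wild type, a log2 fold change of −0.77 ± 0.10 (adjusted p = 0.00057). GPM1, which moves the phosphate of 3-phosphoglycerate, had 5859 and 6448 RPKM in rpl22a, against 9607, 9354 and 8878 RPKM in wild type, a log2 fold change of −0.59 ± 0.10 (adjusted p = 0.00212). CDC19, which makes pyruvate, had 10042 and 9028 RPKM in rpl22a, against 12058, 13222 and 13475 RPKM in wild type, a log2 fold change of −0.44 ± 0.12 (adjusted p = 0.0268). The groups were apart for all 3 genes, with the closest libraries in CDC19. The call of CDC19 was lost without rpl22a replicate 1 (adjusted p = 0.0555) or 2 (0.183), without wild-type replicate 2 (0.0809) or 3 (0.0656), with the 2 strains alone (0.0630) and with no scaling beyond the deposited values (0.108).

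The other 6 calls, of HXK2, PGI1, PFK1, FBA1, PGK1 and GPM1, held in all 14 alternatives tried for this comparison. With no scaling beyond the deposited values the median of all features moved by 0.16 on the log2 scale and calls split into 887 higher and 293 lower, against 430 higher and 498 lower with scaling. The 9 enzymes then counted 6 lower and none higher. Together they took 5.64 and 5.66% of listed footprint reads in rpl22a, against 7.14, 7.44 and 7.51% in wild type.

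**Figure D3:**
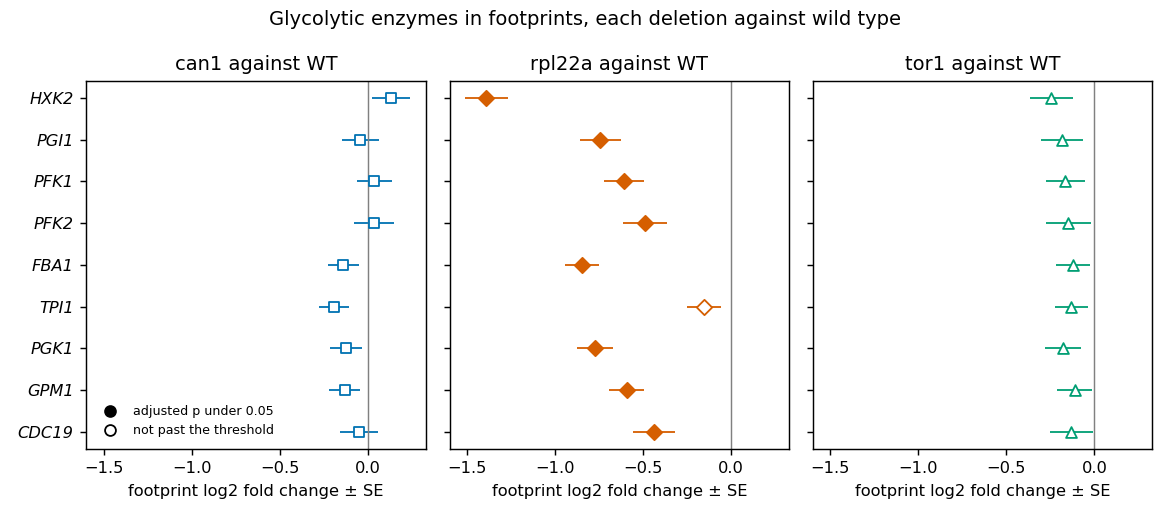
Footprint log2 fold change of the 9 genes in each deletion against wild type, with bars for SE and filled symbols for adjusted p under 0.05. In rpl22a 8 symbols are filled and all 9 lie below 0, and no symbol is filled in can1 or tor1.

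The other deletions did not pass the test for any of the 9 enzymes. In can1 footprints the log2 fold changes ran from −0.19 in TPI1 to 0.13 in HXK2 with a median of −0.05, and the smallest adjusted p was 0.999 (limma). An unadjusted p under 0.05 was reached by TPI1 alone (0.0425) and by 4.79% of all features, and 0.225% were called. TPI1 had 6827, 6651 and 6431 RPKM in can1, against 7786, 7839 and 7154 RPKM in wild type, and GPM1 had 8765, 8436 and 8223 RPKM in can1, against 9607, 9354 and 8878 RPKM in wild type. These were the 2 genes in which all 3 can1 libraries lay below all wild-type libraries, a separation seen downward in 3.91% of all features.

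In tor1 footprints all 9 differences were below 0 and small, from −0.24 in HXK2 to −0.11 in GPM1. The median was −0.15, against 0.00 over all features, and the smallest adjusted p was 0.715 (limma), with 0.041% of features called and none of the 9, against 7.27% of features, at an unadjusted p under 0.05. HXK2 had 1188 and 1106 RPKM in tor1, against 1258, 1359.5 and 1465 RPKM in wild type. In HXK2, FBA1, PGK1 and CDC19 both tor1 libraries lay below all wild-type libraries, as in 12.6% of all features. The remaining genes, PGI1, PFK1, PFK2, TPI1 and GPM1, had tor1 libraries on both sides of the lowest wild-type library. PGI1, for example, had 1867 and 1521 RPKM in tor1, and PFK2 had 600.2 and 512 RPKM.

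Whether rpl22a differed from the other deletions was tested directly, with the same rpl22a libraries as above. Against can1, 8 of the 9 enzymes fell in rpl22a, with 12.5% of all features called lower. HXK2 had the largest difference of the 9, −1.52 ± 0.12 (adjusted p = 2.50e-05), followed by FBA1 with −0.71 ± 0.10 (adjusted p = 0.000769) and PGI1 with −0.70 ± 0.12 (adjusted p = 0.00238). TPI1 stood at 0.04 ± 0.09 (adjusted p = 0.788), with rpl22a and can1 libraries that overlapped. Calls lost with 1 library left out were those of GPM1 (adjusted p = 0.0505 without rpl22a replicate 1), PFK2 (0.0977 without rpl22a replicate 2) and CDC19. CDC19 was lost without rpl22a replicate 1 (0.0665) or 2 (0.227) and without can1 replicate 2 (0.124) or 3 (0.124).

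Against tor1, 6 of the 9 enzymes fell in rpl22a and 7.91% of all features were called lower. HXK2 differed by −1.15 ± 0.13 (adjusted p = 0.00035), FBA1 by −0.72 ± 0.11 (adjusted p = 0.00161) and PGK1 by −0.59 ± 0.11 (adjusted p = 0.00601). GPM1, PGI1 and PFK1 also passed, while PFK2 (−0.34 ± 0.14, adjusted p = 0.123), CDC19 (−0.31 ± 0.13, adjusted p = 0.143) and TPI1 (−0.02 ± 0.10, adjusted p = 0.909) did not. Without tor1 replicate 1 the calls of 2 genes were left, as PGI1 (adjusted p = 0.151), PFK1 (0.207), PGK1 (0.0703) and GPM1 (0.117) missed the threshold. Calls in either direction over all features then numbered 239, against 720 with all libraries. PFK1 also missed it without tor1 replicate 2 (0.0681) or rpl22a replicate 2 (0.183), PGI1 without rpl22a replicate 2 (0.104) and GPM1 without rpl22a replicate 1 (0.0695).

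The mRNA of the enzymes in rpl22a came from 1 library, so it has no replicate check and no test. HXK2 had 331 RPKM in rpl22a mRNA, against 703 and 624 RPKM in wild type. PGK1 had 2385 RPKM, against 9861 and 5793 RPKM in wild type, and GPM1 had 5181 RPKM, against 14724 and 9536 RPKM in wild type. On the mean of log2 levels PGK1 and GPM1 were more than 2-fold lower than wild type, as were 1.92% of 5300 features, and HXK2 lay at that limit with a difference of −0.9998. FBA1 had 5335 RPKM in rpl22a, against 11681 and 8166 RPKM in wild type, TPI1 had 4459.9, against 8275 and 5531 RPKM, and PGI1 had 392, against 571 and 429 RPKM. These 6 genes lay below both wild-type libraries, which held for 36.9% of all features.

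The remaining 3 enzymes lay inside the wild-type range. PFK1 had 131 RPKM in rpl22a mRNA, against 142 and 102 RPKM in wild type, PFK2 had 84.1, against 94.6 and 64.4 RPKM, and CDC19 had 3093, against 5125 and 3051 RPKM. Wild-type mRNA is itself an uncertain base for this gene set. Wild-type replicate 1 was above replicate 2 for all 9 enzymes, by 0.17 to 0.77 on the log2 scale and by a median of 0.55, against a median of 0.00 over all features. The part of this spread in the mRNA differences was not tested.

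Set side by side, the footprint and mRNA differences of rpl22a were related differently from gene to gene. For PFK1 the log2 difference was −0.61 in footprints and 0.12 in mRNA, and for PFK2 it was −0.49 and 0.11. For PGK1 it was −0.77 in footprints and −1.66 in mRNA, for GPM1 −0.59 and −1.19, and for TPI1 −0.15 and −0.60. HXK2 differed by −1.39 in footprints and −0.9998 in mRNA, PGI1 by −0.74 and −0.34, FBA1 by −0.85 and −0.87, and CDC19 by −0.44 and −0.35. The footprint difference less the mRNA difference ran from −0.72 in PFK1 to 0.89 in PGK1 with a median of −0.08. The middle 90% of all genes ran from −0.67 to 0.83, so PFK1 and PGK1 lay just outside it.

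**Figure D4:**
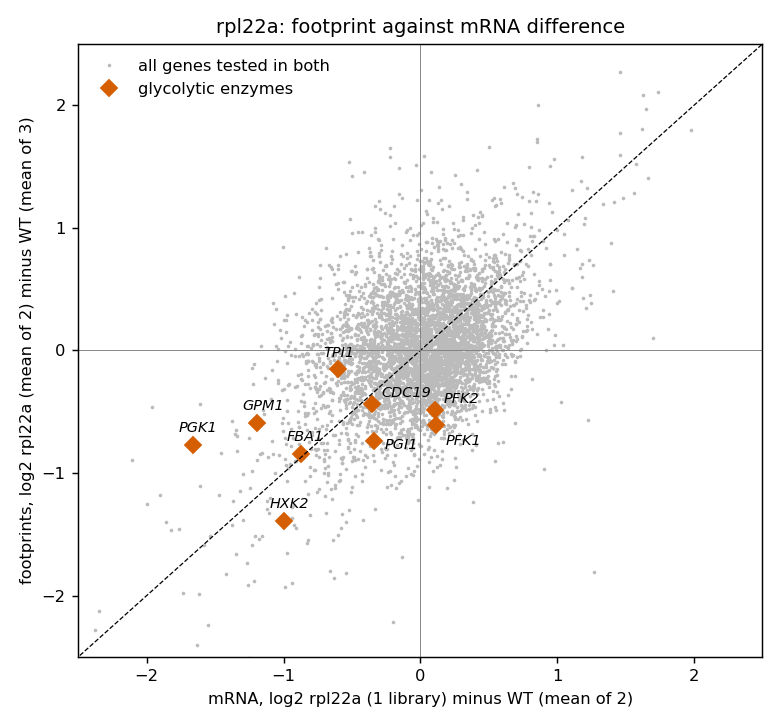
Log2 difference of rpl22a from wild type in footprints (vertical axis, means of 2 and 3 libraries) against that in mRNA (horizontal axis, 1 library against the mean of 2) for 4879 genes in grey and the 9 enzymes in orange, with a dashed line of equality. All 9 lie below 0 in footprints, PFK1 and PFK2 lie right of 0 in mRNA and PGK1 lies farthest left, and 4 genes fall outside the axes.

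In tor1 mRNA, also 1 library, every enzyme lay within the wild-type range, while 30.3% of all features lay below it. HXK2 had 667 RPKM in tor1, against 703 and 624 RPKM in wild type. The log2 differences from the mean of the wild-type libraries ran from 0.01 in HXK2 to 0.31 in CDC19. On that mean, footprint less mRNA was below 0 for all 9, from −0.44 in CDC19 to −0.20 in PFK2. The 2 wild-type mRNA libraries themselves differed by a median of 0.55 for these genes, with tor1 between them. Whether the sign holds against either wild-type library alone was not tested. The middle 90% of all genes ran from −0.45 to 0.52.

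In can1 mRNA, with 2 libraries, none of the 9 passed the test, with 1.42% of 5300 features called. Differences ran from −0.70 in PGK1 to 0.04 in HXK2 with a median of −0.28 and 8 of 9 below 0. PGK1 had 5271 and 4091 RPKM in can1, against 9861 and 5793 RPKM in wild type (−0.70 ± 0.40, adjusted p = 0.781, limma, the smallest of the 9), and no unadjusted p was under 0.05, against 7.47% of all features. FBA1, TPI1, PGK1 and GPM1 lay below both wild-type libraries, as 14.5% of all features did. Footprint over mRNA, tested as an interaction of assay and strain, passed for none of the 9 (limma, smallest adjusted p = 0.9999, 0 at an unadjusted p under 0.05 against 1.78% of features, 0.0205% of 4879 features called). Its differences lay between 0.09 in PFK1 and 0.58 in PGK1, with a median of 0.23. Among the alternatives tried, HXK2, PGI1, PFK1, PFK2 and CDC19 also took values below 0, down to −0.20 in PGI1. FBA1, TPI1, PGK1 and GPM1 stayed above 0 throughout. With no scaling beyond the deposited values the median of all features moved by 0.21 in can1 mRNA and by −0.18 in this interaction.

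Across the 10 footprint libraries 8 of the enzymes varied together, with Pearson correlations of their log2 levels between 0.73 (GPM1 and CDC19) and 0.99 (FBA1 and PGK1). TPI1 stood apart, at 0.11 with PFK2 to 0.51 with GPM1. The libraries share strains and scaling, so the 10 points are not independent, and the rpl22a libraries are the low ones for 8 genes. Of 1526 other features of at least 50 RPKM, the 5 most like the mean pattern of the 9 were the merged enolase genes ENO1/ENO2 (r = 0.997), ADH1 (0.991), CDC48 (0.983), PET9 (0.983) and ERG13 (0.982). ADH1 encodes alcohol dehydrogenase, CDC48 an ATPase that unfolds ubiquitylated proteins, PET9 the mitochondrial ADP/ATP carrier and ERG13 an early enzyme of sterol synthesis. CDC48 averaged 369 RPKM in rpl22a, 481 in can1, 463 in tor1 and 484 in wild type.

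The isozymes and the steps listed as merged features were described with the same fit. The dehydrogenase genes TDH1, TDH2 and TDH3 are listed as 1 merged feature, as are ENO1 and ENO2, so their levels are averages over similar copies (TDH3 was identical to TDH2 at 95.8% and to TDH1 at 88.89%, and ENO1 to ENO2 at 94.82%, of aligned coding bases). Of 7 isozyme features 3 fell and none rose in rpl22a footprints against wild type, with a median of −0.58, beside 10.2% of all features called lower. ENO1/ENO2 had 6944 and 6362 RPKM in rpl22a, against 11594, 12965 and 12781.5 RPKM in wild type (−0.90 ± 0.11, adjusted p = 0.000295), and TDH3/TDH2/TDH1 had 8103 and 7939 RPKM, against 11202, 12517 and 12401 RPKM in wild type (−0.58 ± 0.10, adjusted p = 0.00279). HXK1, the hexokinase made more when glucose is scarce, had 2.71 and 4.62 RPKM in rpl22a, against 21.8, 13.3 and 17.01 RPKM in wild type (−1.98 ± 0.33, adjusted p = 0.00238), on 28 and 23 reads in the rpl22a libraries. HXK1 and HXK2 were identical at 77.85% of aligned coding bases, so reads from the far more abundant HXK2 could reach HXK1 where the sequences match.

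The minor isozymes GLK1, PYK2, GPM3 and GPM2 did not pass in rpl22a footprints against wild type. GLK1, glucokinase, averaged 13.6 RPKM in rpl22a, against 26.3 RPKM in wild type (−0.87 ± 0.33, adjusted p = 0.0879), and passed without wild-type replicate 2 (0.0465). Against can1 GLK1 fell in rpl22a (−1.29 ± 0.33, adjusted p = 0.0183, and 0.131 or 0.0589 without rpl22a replicate 1 or can1 replicate 3). PYK2 averaged 4.76 RPKM, against 4.99 RPKM in wild type (adjusted p = 0.922), GPM3 20.1, against 22.3 RPKM (0.654), and GPM2 1.46, against 2.08 RPKM (0.372). In can1 mRNA, with 0.887% of features called higher, GLK1 rose, with 60.5 and 73.1 RPKM in can1, against 27.3 and 36.4 RPKM in wild type (1.05 ± 0.22, adjusted p = 0.000403), a call lost without wild-type replicate 1 (0.615) or can1 replicate 1 (0.143) or 2 (0.713).

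**Figure D5:**
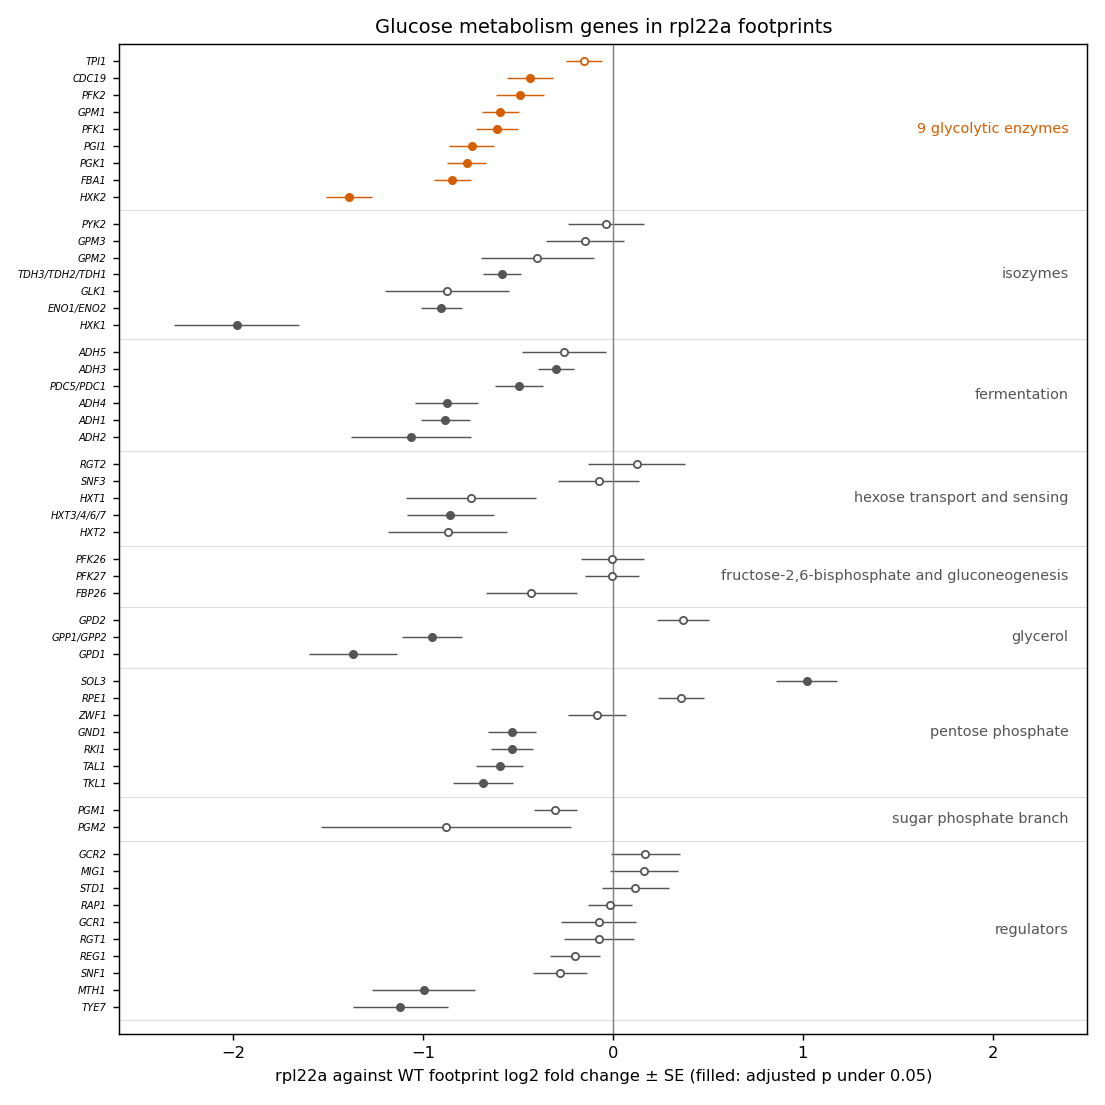
Footprint log2 fold change of rpl22a against wild type with SE for the 9 enzymes (orange) and for the features of 8 lists around glucose metabolism (grey), filled where adjusted p was under 0.05. In the 9 enzymes 8 are filled and lower, while the regulators and the fructose-2,6-bisphosphate genes lie mostly near 0.

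Fermentation, the branch that takes up pyruvate, fell in part in the same comparison. Of 6 features 5 fell in rpl22a footprints against wild type, with a median of −0.68 and none higher, beside 10.2% of all features called lower. ADH1, which reduces acetaldehyde to ethanol, had 4875 and 4690.3 RPKM in rpl22a, against 7733, 9728 and 9105 RPKM in wild type (−0.88 ± 0.13, adjusted p = 0.000961). The merged pyruvate decarboxylase feature PDC5/PDC1 averaged 5016 RPKM in rpl22a, against 7063 RPKM in wild type (−0.49 ± 0.13, adjusted p = 0.0207), a call lost without rpl22a replicate 2 (0.164) or wild-type replicate 2 (0.0762). ADH4 fell by 0.88 ± 0.16 (adjusted p = 0.00447), on 17 and 33 reads in the rpl22a libraries. ADH2 (−1.06 ± 0.32, adjusted p = 0.0388) and ADH3 (−0.30 ± 0.09, adjusted p = 0.0477) missed the threshold without either rpl22a library and without wild-type replicate 3, and ADH2 also without wild-type replicate 1 and ADH3 without wild-type replicate 2, with adjusted p between 0.0501 and 0.263. The ADH2 call rests on 1 and 6 reads in the rpl22a libraries, against 7 to 15 in wild type. ADH5 missed the threshold against wild type (−0.26 ± 0.22, adjusted p = 0.443) and was lower in rpl22a than in can1 (−1.09 ± 0.22, adjusted p = 0.00589). It averaged 18.5 RPKM in can1 footprints, against 9.95 RPKM in wild type and 8.05 RPKM in rpl22a.

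Glucose transport and control genes were described from the same fit. With 10.2% of all features called lower, 1 of 5 transport and sensing features fell in rpl22a footprints against wild type, the merged hexose transporters HXT6/HXT7/HXT4/HXT3, which averaged 85.4 RPKM in rpl22a, against 156 RPKM in wild type (−0.86 ± 0.23, adjusted p = 0.0235). That call was lost without rpl22a replicate 2 (0.206) or wild-type replicate 2 (0.0763) or 3 (0.0749). Of 10 regulators 2 fell, beside the same 10.2% of all features, and the median was −0.07. TYE7, an activator of glycolytic genes, had 36.1 and 49.9 RPKM in rpl22a, against 72.6, 99.6 and 113 RPKM in wild type (−1.12 ± 0.25, adjusted p = 0.0112, and 0.0984 without rpl22a replicate 1). MTH1, which holds hexose transporter genes off when glucose is low, averaged 2.16 RPKM in rpl22a, against 5.35 RPKM in wild type (−0.998 ± 0.27, adjusted p = 0.0262, and 0.066, 0.194 and 0.0797 without rpl22a replicate 1, rpl22a replicate 2 or wild-type replicate 3). MTH1 had 23 and 8 reads in the rpl22a libraries. GCR1 (−0.07 ± 0.20, adjusted p = 0.828), GCR2 (0.17 ± 0.18, 0.550) and RAP1 (−0.02 ± 0.12, 0.937) did not pass. Of the fructose-2,6-bisphosphate features, FBP26 had the smallest adjusted p (0.231) and PFK26 and PFK27 both stood at 0.00.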

How the data were processed

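The authors deposited, per the file headers, an RPKM value and a length for each open reading frame. Reads were aligned with Bowtie 1.1.2 to build R64, per the submitters' processing notes, and the treatment of reads with several matches is not stated there. For 5408 of 5456 single features the length given was 100 bases short of the coding length. Of all 5574 features, 116 were merged similar genes, whose levels are averages per length.

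Library totals and reads were recovered from the even steps of low values (tolerance 0.05). Wild-type footprint replicate 1, rpl22a mRNA and wild-type mRNA replicate 2 fitted a mean of 2 runs, so their reads are approximate. Libraries were scaled by trimmed means of M values within each assay. As the values are RPKM and not counts, the test was limma 3.58.1 (R 4.3.3) on log2 scaled RPKM after adding 1, which understates changes of low features. Variances were moderated with a trend and robustly over all strains. For 88% of mRNA features the spread used came wholly from the trend over genes of similar level and not from the gene's own libraries. Features were kept where at least 2 footprint or 1 mRNA libraries reached the level of 10 reads in a library of median size, with 15 reads in all. Benjamini-Hochberg adjustment ran over all features tested, and calls are at an adjusted p under 0.05. The fit was tested on simulated data. Alternatives were other scalings, pseudocounts, filters, moderation and blocks, a coding-length correction, the compared strains alone, and each library left out.

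The members and gene lists were chosen with earlier results of these data known. The text names all 9 members, every isozyme measured, other list genes past the threshold, and the 5 features most like the members. GCR1, GCR2, RAP1, PFK26, PFK27, FBP26, ZWF1, GPD2 and PGM1 were named after their values were seen. Identity was computed on coding bases in place of the planned protein comparison. Promoters, coding starts and coordinates are from the RefSeq R64 genome and annotation. Same-number can1 and wild-type footprint libraries deviated together (correlations of 0.66, 0.24 and 0.44 over 3622 features), so those numbers were taken as pairs in the replicate block. The can1 footprint values printed above come from the fit without that block, and the block changed no call of the 9 there.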

Additional observations from a re-analysis of the deposited data

How the results depend on the processing

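Counts of called members moved by more than 1.5 times under 3 alternatives. With the replicate block PGK1 (−0.70, adjusted p = 0.00176) and GPM1 (−0.67, adjusted p = 0.00184) passed in can1 mRNA, 2 members against 0, beside 138 of 5300 features called. Without scaling beyond the deposited values 1 member, against 0, lay below both wild-type libraries in tor1 mRNA, where 30.3% of all features did with scaling. With 1 library left out in turn the members called in rpl22a against tor1 numbered between 2 and 5, against 6. All features called in either direction then numbered 239 to 414, against 720. Leaving out a library gave 6 to 8 called members in rpl22a against wild type, beside 332 to 976 of 4882 features called in either direction. Against can1 it also gave 6 to 8, beside 388 to 1317 features. In the other tested comparisons it gave 0 members, beside 0 to 157 features. The replicate block left 6 called members in rpl22a footprints, without PFK2 (adjusted p = 0.0891) and CDC19 (0.0949), beside 507 features called. It left 0 members in tor1 and can1 footprints, beside 1 and 17 features. Same-number rpl22a and wild-type libraries deviated with correlations of −0.33 and −0.12, tor1 and wild-type ones with −0.02 and 0.03, and the mRNA pairs with 0.10, so these share only a number. A block over the can1 and wild-type footprints alone, chosen after seeing the data, gave 0 members, beside 28 features called. Over single genes, 2044 alternative values kept their side of the threshold, 139 lost a call, 5 gained one, and no called value changed sign. Other losses in rpl22a footprints included CDC19 against can1 (adjusted p = 0.111 without scaling, 0.0754 with the 2 strains alone, 0.0628 with plain moderation), PFK2 against can1 (0.0834 with the length trend removed) and PFK1 against tor1 (0.102, 0.0572, 0.0594 and 0.0696 under these 4). Against wild type, ADH3 (0.415), PDC5/PDC1 (0.0679), GND1 (0.0783) and RKI1 (0.0521) were lost without scaling, PDC5/PDC1 (0.116) and HXT6/HXT7/HXT4/HXT3 (0.0578) with the length trend removed, ADH2 (0.0814) with pseudocount 5, ADH3 with the 2 strains alone (0.101) and plain moderation (0.0878), and ADH2 (0.123), ADH3 (0.168), PDC5/PDC1 (0.0604), HXT6/HXT7/HXT4/HXT3 (0.107), TKL1 (0.0635) and MTH1 (0.105) with the replicate block. MTH1 in can1 mRNA was lost without scaling (0.0624), without the filter (0.0683) and with plain moderation (0.0605), and HXK1 passed there with the block (0.0499). Without scaling the median of all features moved by 0.12 in rpl22a against can1 and by 0.11 against tor1. Labels give no batch, and depth did not limit the 9 members. Some list genes rest on few footprint reads, among them HXK1, PYK2, GPM2, ADH2, ADH4, MTH1 and PGM2.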

Other observations

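Glycerol synthesis, which draws on triose phosphate below aldolase, fell in part in rpl22a footprints, with 2 of 3 features lower and none higher, against 10.2% of all features called lower. GPD1, glycerol-3-phosphate dehydrogenase, had 40.2 and 69.7 RPKM in rpl22a, against 137, 135 and 144 RPKM in wild type (−1.37 ± 0.23, limma adjusted p = 0.00266). The merged phosphatase feature GPP1/GPP2 averaged 649 RPKM in rpl22a, against 1266 RPKM in wild type (−0.95 ± 0.16, adjusted p = 0.00234). The isozyme GPD2 averaged 139 RPKM in rpl22a, against 108 RPKM in wild type, a difference of 0.37 ± 0.14 that did not pass (adjusted p = 0.0844).

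The pentose phosphate pathway, which leaves glycolysis at glucose 6-phosphate, was mixed in rpl22a footprints against wild type, with 4 lower and 1 higher of 7 features tested, beside 10.2% of all features called lower. SOL3, 6-phosphogluconolactonase, rose to 134 RPKM in rpl22a, against 66.1 RPKM in wild type (1.02 ± 0.16, adjusted p = 0.00165), beside 8.81% of all features called higher. TKL1, transketolase, fell by 0.68 ± 0.16 (adjusted p = 0.0124, and 0.136 without rpl22a replicate 2), TAL1, transaldolase, by 0.60 ± 0.12 (0.00757), GND1 by 0.53 ± 0.13 (0.0141, and 0.136 without rpl22a replicate 2) and RKI1 by 0.53 ± 0.11 (0.00702, and 0.0555 without rpl22a replicate 1). RPE1 (0.36 ± 0.12, adjusted p = 0.0594) and ZWF1 (−0.08 ± 0.15, 0.737) did not pass against wild type. RPE1 rose in rpl22a against can1 (0.46 ± 0.12, limma adjusted p = 0.0194) and against tor1 (0.52 ± 0.13, 0.0227). These calls were lost without either rpl22a library (0.0854 to 0.0975) and, against tor1, without either tor1 library (0.123 and 0.0877). Both were also lost with the coding-length trend removed, at 0.24 against can1 (limma adjusted p = 0.235) and 0.40 against tor1 (0.0942).

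Of the phosphoglucomutases, which link glucose 6-phosphate to storage sugars, PGM2 rose in can1 mRNA to 20.3 RPKM, against 6.87 RPKM in wild type (1.36 ± 0.23, adjusted p = 1.19e-06, and 0.797 without can1 replicate 2), and fell in rpl22a footprints against can1 (−2.16 ± 0.66, adjusted p = 0.0407, and 0.156, 0.118 or 0.0875 without rpl22a replicate 1, rpl22a replicate 2 or can1 replicate 2). PGM2 had 4 and 5 footprint reads in the rpl22a libraries, and its can1 footprint libraries ranged from 1.68 to 19.3 RPKM. PGM1 was not called in any of the 7 tested comparisons (limma). MTH1 rose in can1 mRNA to 10.03 RPKM, against 4.55 RPKM in wild type (0.995 ± 0.25, adjusted p = 0.0068), and missed the threshold without wild-type replicate 1 or either can1 library.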
